A study of Mus musculus with 9 samples.

Results

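The regions described here are peaks of Cdx2 binding in mouse colon epithelium that overlapped, by at least 1 base, a peak of open chromatin in at least 1 of the 2 DKO libraries, whatever the Wt libraries held. There were 270 of them among 5100 Cdx2 peaks on chr1 to 19 and chrX (5.29%, exact binomial 95% interval 4.70 to 5.94, which covers counting error only). Another 2065 Cdx2 peaks overlapped open chromatin in Wt libraries only, and 2765 lay outside all ATAC peaks. The regions were selected on the presence of a peak in the DKO lists, so their openness in DKO is a description and carries no test.

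ATAC-seq, in which a transposase cuts accessible DNA, was run on 2 DKO and 2 Wt libraries, and RNA-seq on another 2 and 2, all from colon epithelial cells enriched with EDTA after 6 days of tamoxifen. The DKO strain was labelled Cdx1-/-Cdx2f/f vill (+) and the Wt strain Cdx1-/-Cdx2f/f vill (-), so a Cdx1 null and a floxed Cdx2 allele stand in both groups' labels, and the labels do not spell out vill. Cdx2 ChIP-seq was 1 library with the Wt strain label, tagged untreated, and therefore has no replicate. No label says whether the replicates came from separate animals.

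Cdx2 is a homeobox transcription factor that specifies intestinal identity and binds AT-rich sites, many of them in enhancers of intestinal genes. Its relative Cdx1 binds the same kind of site. Promoters rich in CpG, bound by factors such as the SP/KLF and ETS families, are open in most tissues, whereas distal elements are usually open in a cell-type-specific manner.

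The groups' libraries differed in ways that touch every count. The DKO lists held 40101 and 23961 ATAC peaks and the Wt lists 48163 and 53943. DKO replicate 1 stood apart: 18.4% of its peaks lay within 1000 bases of a gene start, against 38.4% in DKO replicate 2 and 38.1% and 36.2% in Wt replicates 1 and 2. Only 14.1% and 15.4% of the DKO replicate 1 peaks overlapped a peak of Wt replicates 1 and 2, against 36.2% and 38.5% for DKO replicate 2. Of the 270 regions, 27 rest on DKO replicate 1 alone and 162 on DKO replicate 2 alone. The main shares and medians are therefore given with and without this library.

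Promoter sequences of 5 genes at these regions are printed, chosen for their RNA or ATAC values and not as a sample of all the promoters. They include Dusp5, a gene higher in DKO RNA, Farp2, a lower one, and Gpa33, an intestinal surface glycoprotein gene. H2-T3 is printed because its Cdx2 peak overlapped ATAC peaks in the DKO lists and in neither Wt list. E130308A19Rik, the gene with the highest fold change at any of the regions, is added as a stretch in which none of the marked letters occur. Each stretch holds those of the 250 bases before the RefSeq gene start (GRCm38.p6, the assembly also called mm10) that lie inside the Cdx2 peak, from 5′ to 3′ on the gene's strand. The peaks of E130308A19Rik and Farp2 reach farther from the start than the stretch printed. Capitals mark matches on either strand to CATAAA or AATAAA, which are forms of the CDX motif, to GGGCGG of the SP/KLF factors and to CCGGAAG of the ETS factors.
Dusp5, chr19:53529005-53529144, plus strand: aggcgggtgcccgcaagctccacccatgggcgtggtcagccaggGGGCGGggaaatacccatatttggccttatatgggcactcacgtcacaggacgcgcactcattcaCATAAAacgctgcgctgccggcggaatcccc
E130308A19Rik, chr4:59625961-59626060, plus strand: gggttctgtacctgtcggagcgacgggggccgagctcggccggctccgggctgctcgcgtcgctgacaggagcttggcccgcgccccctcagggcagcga
Farp2, chr1:93511854-93512027, plus strand: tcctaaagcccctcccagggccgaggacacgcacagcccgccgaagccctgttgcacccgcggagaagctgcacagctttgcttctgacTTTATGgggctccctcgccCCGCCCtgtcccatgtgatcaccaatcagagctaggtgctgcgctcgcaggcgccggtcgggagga
Gpa33, chr1:166130081-166130220, plus strand: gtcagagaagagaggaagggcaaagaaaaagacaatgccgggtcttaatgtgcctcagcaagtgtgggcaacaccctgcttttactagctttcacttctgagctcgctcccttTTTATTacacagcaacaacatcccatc
H2-T3, chr17:36190152-36190354, minus strand: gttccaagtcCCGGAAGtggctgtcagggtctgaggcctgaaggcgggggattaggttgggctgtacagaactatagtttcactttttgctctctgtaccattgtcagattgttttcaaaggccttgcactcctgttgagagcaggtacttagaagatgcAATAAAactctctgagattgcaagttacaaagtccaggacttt

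Dusp5 and Farp2 each carried 1 CDX form, CATAAA, and 1 SP/KLF match. Gpa33 carried 1 match to AATAAA and none to the SP/KLF letters. H2-T3 carried 1 AATAAA and 1 ETS match. With a CDX form in 4 of the 5, this choice holds these letters in a larger share than the promoter windows counted next. A match is a description of letters and not a shown binding site, and the lack of one says only that these letters are not in the stretch printed.

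RefSeq promoter windows, 250 bases before to 50 after the start, were overlapped by one of the 270 regions at 87 genes. These windows were GC-rich, with a median GC content of 65.7% against 53.7% at 209 windows under Cdx2 peaks open in Wt only and 46.5% at 48 windows under Cdx2 peaks outside all ATAC peaks. The median ratio of observed to expected CpG was 0.879, against 0.722 at Cdx2 peaks open in Wt only and 0.249 outside ATAC peaks. In both measures they lay near the 5450 windows with no Cdx2 peak that were open in DKO and Wt, where the medians were 66.7% and 0.847. Over all 32585 windows the medians were 53.0% and 0.386.

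Motif letters were counted in the same windows. A window under a Cdx2 peak was classed by the class of that peak, whether or not an ATAC peak overlapped the window itself. Any window with no Cdx2 peak counted as open when an ATAC peak of the group overlapped it. GGGCGG, searched with its reverse CCGCCC, occurred in 68 of the 87 windows (78.2%), against 45.9% at Cdx2 peaks open in Wt only, 79.0% at windows open in DKO and Wt with no Cdx2 peak, and 35.9% of all windows. CCGGAAG, with its reverse CTTCCGG, occurred in 22 (25.3%), against 14.4%, 18.3% and 8.92% in the same 3 sets. CATAAA, with its reverse TTTATG, occurred in 8 (9.20%, interval 4.05 to 17.3). The shares were 16.7% at Cdx2 peaks open in Wt only and 41.7% at Cdx2 peaks outside ATAC peaks. They were 3.39% at windows open in DKO and Wt with no Cdx2 peak and 11.9% of all windows. AATAAA, with its reverse TTTATT, occurred in 10 (11.5%, interval 5.65 to 20.1), against 26.3%, 62.5%, 5.17% and 19.6% in those 4 sets. The shares of both CDX forms thus lay between those of promoters open in DKO and Wt with no Cdx2 peak and those of promoters under the other Cdx2 peaks. At 7627 windows open in Wt only with no Cdx2 peak, CATAAA occurred in 6.59% and AATAAA in 11.5%. The AATAAA share of the 87 windows was therefore not above that of this set. On 87 windows the interval for CATAAA reached the share at Cdx2 peaks open in Wt only. No test of these differences was made. Without DKO replicate 1, 86 windows remained, with 77.9% for GGGCGG, 9.30% for CATAAA and 11.6% for AATAAA. AT-rich letters are rarer in GC-rich windows, and the part of base composition in these shares was not tested. The GATA letters, AGATAA with the reverse TTATCT, occurred in 4 windows (4.60%), against 12.0% at Cdx2 peaks open in Wt only. The CDX forms can share bases with each other, and no other motif was required to be free of overlap.

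**Figure D1:**
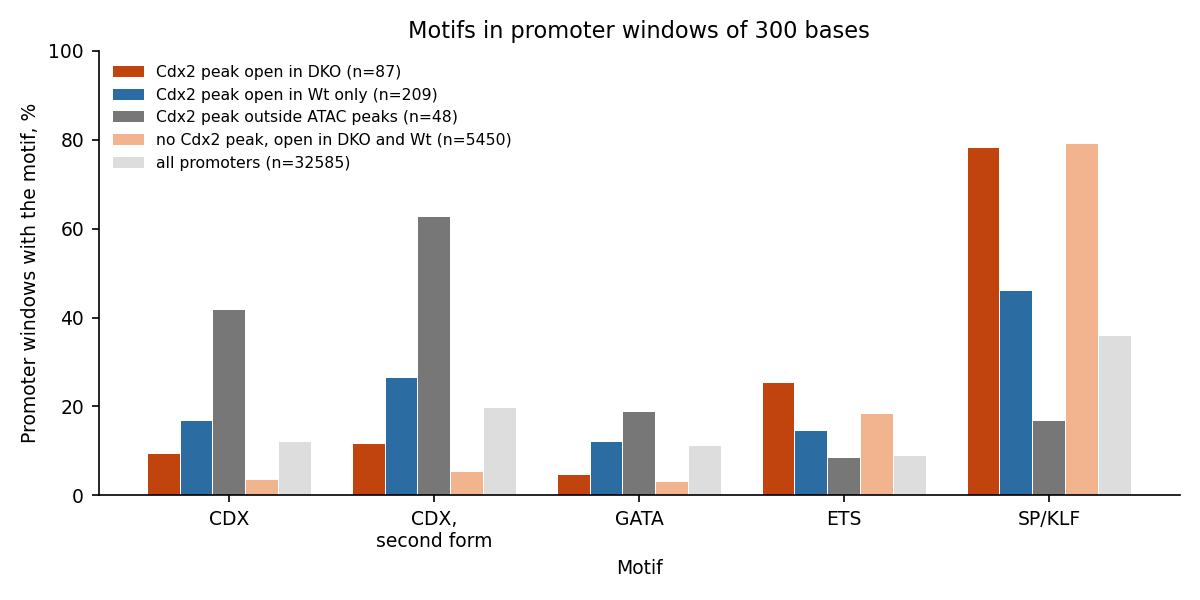
Share of promoter windows of 300 bases (vertical axis, percent) that held each motif (horizontal axis), for windows under Cdx2 peaks open in DKO and for 4 comparison sets, with the number of windows in the legend. The SP/KLF bar of the 87 windows stood at 78.2%, beside 79.0% for windows open in DKO and Wt with no Cdx2 peak. The CDX bars of the 87 windows, at 9.20% and 11.5%, lay below those of the other Cdx2 peaks.

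The place of the regions relative to genes was not used to choose them. A Cdx2 summit lay within 1000 bases of a gene start in 118 of the 270 (43.7%, interval 37.7 to 49.8), inside a gene but away from its start in 75 (27.8%) and outside genes in 77 (28.5%). Among Cdx2 peaks open in Wt only, 319 of 2065 (15.4%, interval 13.9 to 17.1) lay at a gene start, and among those outside all ATAC peaks 209 of 2765 (7.56%). The gene-start share was 47.3% of 243 without DKO replicate 1 and 44.4% of 108 without DKO replicate 2. It was highest where evidence of openness was broadest, at the 69 regions listed in all 4 ATAC libraries. Of these, 43 lay at a gene start (62.3%, interval 49.8 to 73.7), and the median distance over the 69 was 369 bases. A place at gene starts was not particular to Cdx2 peaks. Of Wt replicate 1 peaks that overlapped a DKO peak, 2442 of 9837 with no Cdx2 peak lay away from gene starts. With a Cdx2 peak 114 of 269 did, so a smaller share of these lay at gene starts. The order was the same in Wt replicate 2.

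Distances were short among the regions at a gene start. The summit lay within 100 bases of a start in 36 of the 270 (13.3%), within 250 in 81 (30.0%) and within 500 in 104 (38.5%), against 2.84%, 6.35% and 8.82% of all 5100 Cdx2 peaks. The median distance was 3228 bases over the 270 and 10539 over Cdx2 peaks open in Wt only. The 34 regions with no Wt peak were placed otherwise: 3 of them lay at a gene start (8.82%, interval 1.86 to 23.7), and their median distance was 11132 bases. Of the 27 regions resting on DKO replicate 1 alone, 3 lay at a gene start (11.1%).

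**Figure D2:**
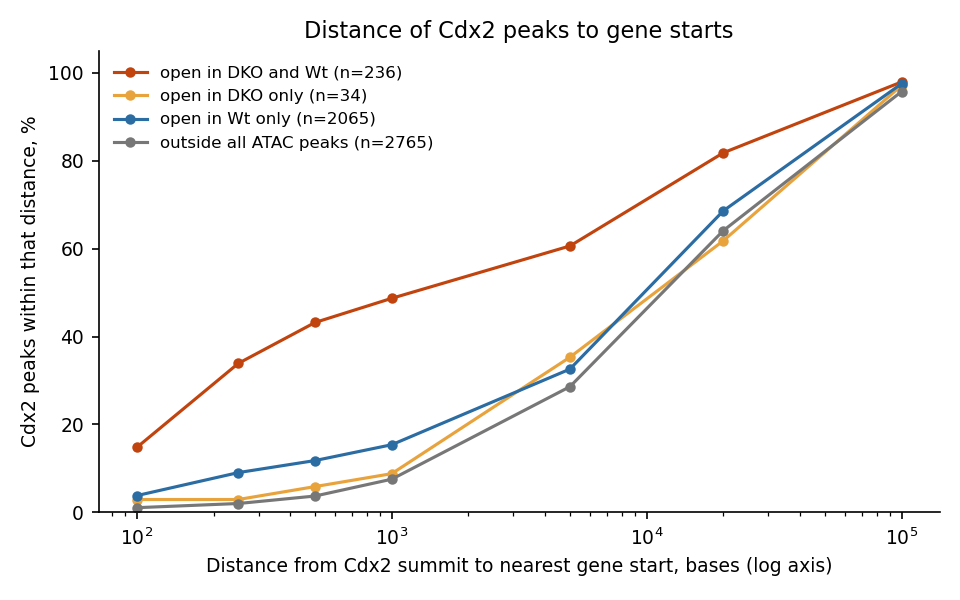
Share of Cdx2 peaks (vertical axis, percent) whose summit lay within a given distance of the nearest gene start (horizontal axis, bases, log scale), for 4 classes of Cdx2 peak. At 1000 bases the curve for the 236 regions open in DKO and Wt stood at 48.7%, above 8.82% for those open in DKO only, 15.4% for those open in Wt only and 7.56% outside ATAC peaks.

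Most of the regions were open in Wt as well. A Wt peak overlapped 236 of the 270 (87.4%, and 90.5% of 243 without DKO replicate 1), both Wt lists held 221 (81.9%), and 34 had no Wt peak (12.6%). By library, 108 of the 270 were listed in DKO replicate 1 and 243 in DKO replicate 2, against 225 in Wt replicate 1 and 232 in Wt replicate 2. The most frequent pattern was a peak in DKO replicate 2 and both Wt libraries without DKO replicate 1, seen in 139 regions, and 69 were listed in all 4. Of all 5100 Cdx2 peaks, 2.12% and 4.76% were open in DKO replicates 1 and 2, against 39.1% and 41.1% in Wt replicates 1 and 2. Read from Wt, 236 of the 2301 Cdx2 peaks open in at least 1 Wt library also carried a DKO peak (10.3%, interval 9.05 to 11.6). That share was 9.56% without DKO replicate 1 and 3.91% without DKO replicate 2.

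The share of Wt-open Cdx2 peaks that carried a DKO peak was highest at gene starts and among strong Wt peaks. At gene starts it was 115 of 434 (26.5%, interval 22.4 to 30.9), against 57 of 1059 inside genes away from starts (5.38%) and 64 of 808 outside genes (7.92%). Ranked by the percentile of the ATAC peak's fold enrichment in its Wt list, the share was 20 of 628 at percentiles 0 to 50 (3.18%), 23 of 661 at 50 to 75 (3.48%), 71 of 631 at 75 to 90 (11.3%) and 122 of 381 at 90 to 100 (32.0%). Both features counted side by side: in the top class, 76 of 150 at gene starts carried a DKO peak (50.7%, interval 42.4 to 58.9), against 46 of 231 elsewhere (19.9%, interval 15.0 to 25.7). The shares at gene starts and elsewhere were 23.7% and 7.86% at percentiles 75 to 90, and 8.05% and 2.79% at 50 to 75. At percentiles 0 to 50 the order was the other way, with 0 of 62 at gene starts and 20 of 566 elsewhere (3.53%). With DKO replicate 2 alone the gene-start share was 26.0%, against 4.53% inside genes and 7.30% outside genes, and in the top class 75 of 150 at gene starts against 45 of 231 elsewhere.

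Open regions with and without a Cdx2 peak were set side by side within those classes. Of all Wt ATAC peaks, 21.0% of 48159 in replicate 1 and 19.8% of 53937 in replicate 2 overlapped a peak of at least 1 DKO list. With a Cdx2 peak the shares were 13.3% of 2023 and 13.2% of 2132, against 21.3% and 20.1% without one. Split by place, the gap narrowed. At gene starts 38.3% of 405 and 38.2% of 419 Wt peaks with a Cdx2 peak overlapped a DKO peak, against 41.2% and 39.8% of those without one. Elsewhere the shares were 7.05% of 1618 and 7.06% of 1713 with a Cdx2 peak, against 8.67% and 8.60% without. By DKO library, the shares elsewhere were 2.78% and 2.80% with a Cdx2 peak against 4.95% and 4.97% without in DKO replicate 1, and 6.18% and 6.42% against 6.21% and 6.18% in DKO replicate 2. The gap away from gene starts thus came with DKO replicate 1. Above the 75th percentile of fold enrichment they were 56.7% and 55.5% at gene starts with a Cdx2 peak, against 63.1% and 62.7% without, and 14.8% and 13.2% elsewhere with a Cdx2 peak, against 15.1% and 13.6% without. Gene starts make up 20.0% and 19.7% of the Wt peaks with a Cdx2 peak, and 38.9% and 36.9% of those without.

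**Figure D3:**
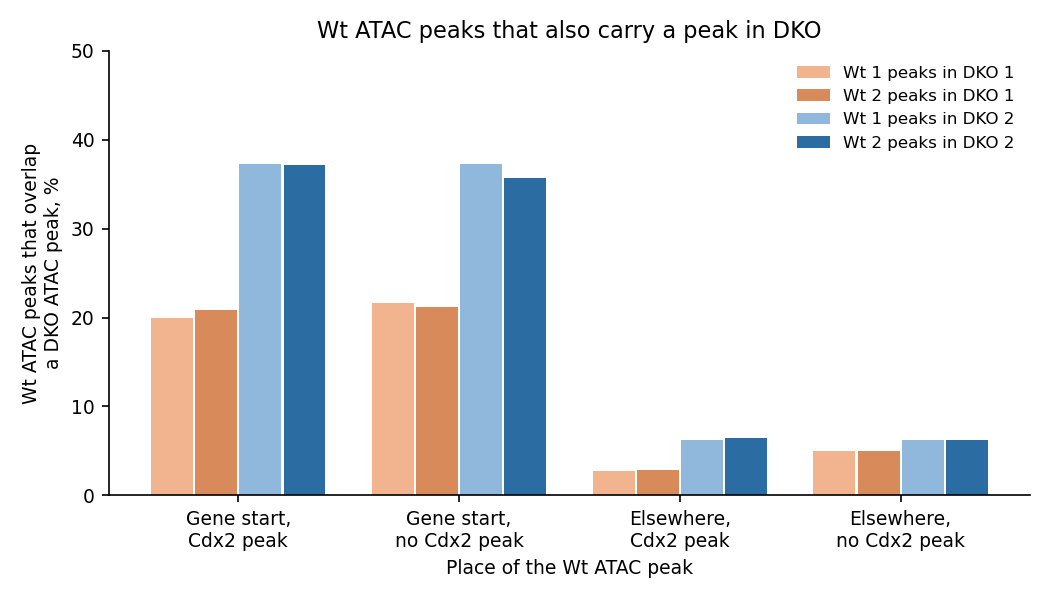
Share of Wt ATAC peaks (vertical axis, percent) that overlapped a peak of DKO replicate 1 or of DKO replicate 2, by place and by presence of a Cdx2 peak (horizontal axis), with 1 bar for each pair of libraries. At gene starts the bars stood at 20.0% and 20.8% with a Cdx2 peak and 21.6% and 21.2% without one in DKO replicate 1, and at 37.3% and 37.2% against 37.3% and 35.7% in DKO replicate 2. Elsewhere they stood at 2.78% and 2.80% against 4.95% and 4.97% in DKO replicate 1, and between 6.18% and 6.42% in DKO replicate 2.

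Cdx2 enrichment at these regions was, in the median, slightly below that of the other Cdx2 peaks. The fold enrichment given by the authors' peak caller had a median of 5.08 (quartiles 4.39 to 6.02, range 2.42 to 16.7) over the 270 (5.09 without DKO replicate 1), against 5.45 over Cdx2 peaks open in Wt only and 5.73 outside ATAC peaks. The distributions overlapped widely, and with 1 ChIP library no test can be made. Regions at gene starts had a median of 4.54, against 4.89 at gene starts among Cdx2 peaks open in Wt only. Away from gene starts the medians of these 2 classes were 5.59 and 5.56, so the lower median was not seen there. Sorted by Cdx2 fold enrichment into 4 equal classes from low to high, 114, 62, 46 and 48 of 1275 peaks each belonged to the regions open in DKO. Among Wt-open Cdx2 peaks at gene starts the share with a DKO peak was 32.5%, 25.0%, 18.3% and 9.52% from the lowest to the highest class, the last being 4 of 42. Away from gene starts it was 7.32%, 6.00%, 5.33% and 7.37%, with intervals that overlapped throughout. The 34 regions with no Wt peak had a median Cdx2 fold enrichment of 5.99, above the 4.98 of the 236 that had one.

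ATAC fold enrichment at the regions was, in the median, lower in the DKO lists than in the Wt lists. The ATAC fold enrichment at the regions had a median of 4.11 in DKO replicate 1 (n = 108) and 4.11 in DKO replicate 2 (n = 243), against 8.05 in Wt replicate 1 (n = 225) and 8.16 in Wt replicate 2 (n = 232). Over each whole list the medians were 3.90 and 3.77 in DKO and 4.95 and 4.88 in Wt, so the lists themselves were on different levels. Within its own list the median percentile was 63.4 and 67.4 in DKO replicates 1 and 2, against 88.5 and 89.1 in Wt replicates 1 and 2. Cdx2 peaks open in Wt only reached median percentiles of 63.5 and 66.0 in the Wt lists, so the regions with a DKO peak ranked higher within Wt. Of the 69 regions in all 4 lists, both DKO values lay below both Wt values in 59 and above both in 2. The peaks were also narrower, with median widths of 231 and 287 bases in DKO and 491 and 488 in Wt. The Cdx2 summit lay a median of 98.5 and 108 bases from the ATAC summit in DKO and 106 and 102 in Wt, against 67.0 and 71.0 in Wt at Cdx2 peaks open in Wt only.

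**Figure D4:**
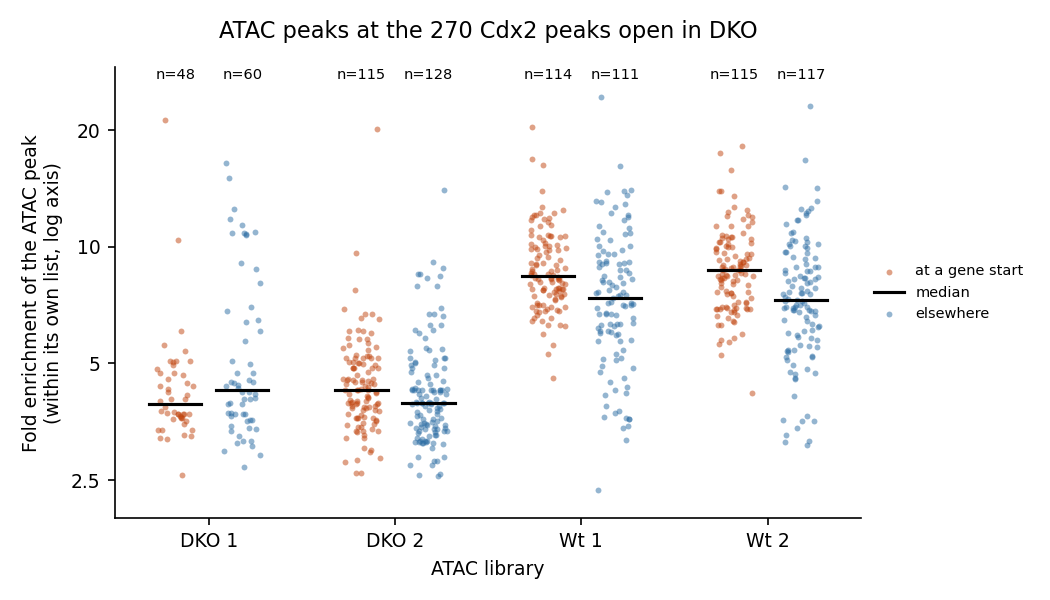
Fold enrichment of the ATAC peak (vertical axis, log scale) at the Cdx2 peaks open in DKO, for each ATAC library (horizontal axis), with regions at a gene start and elsewhere as separate columns of points, a line at each median and n above. Median lines at gene starts and elsewhere stood at 3.93 and 4.27 in DKO replicate 1 and 4.27 and 3.96 in DKO replicate 2. They stood at 8.40 and 7.36 in Wt replicate 1 and 8.71 and 7.30 in Wt replicate 2. A few regions reach about the same height in all 4 libraries.

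Some regions had a high ATAC fold enrichment in every library. At chr15:60141749-60142115, 34 bases from the start of Gm41331, the ATAC fold enrichment was 21.21 and 20.10 in DKO and 20.32 and 17.48 in Wt, at a Cdx2 fold enrichment of 8.38. At chr13:9011624-9011840 it was 16.41 and 13.98 in DKO and 24.34 and 23.12 in Wt, at a Cdx2 value of 5.86. At chr3:64414284-64414613, 4396 bases from the start of Vmn2r4, it was 12.48 and 9.14 in DKO and 9.80 and 12.40 in Wt. These 3, with chr4:88640978-88641318 and chr13:104742862-104743196, had the highest ranks over all 4 lists, and 4 of the 5 lay away from any gene start. Their Cdx2 values ran between 5.86 and 8.85.

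At the 10 regions with the highest Cdx2 enrichment, the ATAC fold enrichment in DKO ran from 3.13 to 4.33, around and below the median of 4.11 over all the regions. The strongest in Cdx2, at chr17:66595942-66596318 and 1488 bases from a start of Themis3, had a Cdx2 fold enrichment of 16.69. It had an ATAC peak of 3.45 in DKO replicate 2 and 3.08 in Wt replicate 2, and none in DKO replicate 1 or Wt replicate 1. The next, at chr13:42276761-42277249 and 24467 bases from Edn1, had a Cdx2 value of 14.10. Its ATAC fold enrichment was 3.38 in DKO replicate 2, with no peak in DKO replicate 1, against 5.41 and 6.26 in Wt. Of the 10 highest, 2 lay at a gene start, Gm30246 and Gucy2c. Another 2 of the 10 had no Wt peak: chr12:16752266-16752610 in Greb1, at 3.13 in DKO replicate 2, and chr12:34997682-34998068, at 3.96. A total of 7 of the 34 regions with no Wt peak were listed in both DKO libraries. Wt peaks were counted over the Cdx2 peak only, so a DKO peak there may still overlap a Wt peak beside it. At chr6:137003124-137003360, in this class, the DKO peaks of 10.82 and 8.53 also covered the Cdx2 peak at chr6:137002763-137003038. Wt peaks of 5.30 and 6.09 were listed over that neighbour.

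Membership was close for some regions. The shortest overlaps with a DKO peak were 2, 3 and 4 bases, and the nearest Cdx2 peaks left out lay 1 base away. Overlap was under 50 bases in 31 of the 270, and 29 of the 4830 other Cdx2 peaks had a gap under 50 bases. The regions were spread over all chromosomes examined, from 2.47% of the Cdx2 peaks on chromosome 10 to 7.98% on chromosome 16.

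RNA from genes at the regions was read in the authors' deposited table, which compares DKO with Wt by gene and gives no value per library. A start lay within 1000 bases of a summit for 143 RefSeq genes, of which 118 were in the table. By the gene comparison of the authors' deposited table, of the 118 genes 34 rose and 21 fell in DKO at an adjusted p under 0.05 (46.6%), where 36.8% of all 17511 genes were called, 18.5% higher and 18.3% lower. When only well-measured genes were kept (mean normalized count of 50 or more, p readjusted), 35 of 113 rose and 21 fell (49.6%), against 45.7% called over all such genes in the authors' deposited table, 25.5% in the upward and 20.2% in the downward direction. The share called was thus near that of all genes with such counts. Without DKO replicate 1 114 genes were left, and 33 rose and 18 fell by the authors' deposited table. The median log2 fold change was 0.16 over the 118 genes and -0.02 over all genes of the authors' deposited table. At genes of Cdx2 peaks open in Wt only, 45 of 278 passed as higher and 66 as lower by the authors' deposited table, with a median of -0.07. At regions in all 4 ATAC lists 12 of 40 genes were higher and 3 lower (37.5% called), with a median of 0.42 in the authors' deposited table.

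In bulk RNA, fewer cells of a type and less RNA per cell cannot be told apart. All 8 epithelial markers were present, at mean normalized counts of 11757 to 159960, and the authors' deposited table called 2 of them higher and 2 lower. All 7 stroma and muscle markers were lower in DKO, at a median log2 fold change of -7.67 in the authors' deposited table, and of the 6 immune markers 1 was higher and 3 lower (median -1.42). Their part in the gene values was not tested. The authors' deposited table put the log2 fold change of Cdx2 itself at -0.27 (SE 0.21, adjusted p = 0.301), so its total RNA was not called lower.

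Dusp5, Epc2 and Camk2d were among the genes at these regions that rose most in DKO. Dusp5, a nuclear phosphatase of ERK kinases, had a Cdx2 summit 15 bases from its start. The ATAC fold enrichment there was 3.50 in DKO replicate 2, with no peak in DKO replicate 1, against 7.80 and 7.71 in Wt. Its RNA rose by 2.26 on the log2 scale of the authors' deposited table (SE 0.27, adjusted p = 2.33e-16), although its ATAC peak was no higher in DKO. Epc2 (region chr2:49451827-49452265), a subunit of the NuA4 acetyltransferase complex, rose by 2.46 (SE 0.25) in the authors' deposited table. Its ATAC values were 3.71 and 5.05 in DKO and 7.49 and 8.18 in Wt. Camk2d (region chr3:126596239-126596491), a calcium and calmodulin dependent kinase, rose by 2.27 (SE 0.21, mean count 3332) in the authors' deposited table, with 4.87 in DKO replicate 2, no peak in DKO replicate 1, and 7.16 and 8.44 in Wt. At all of these the Wt values lay above the DKO values while the RNA moved up. That order was not particular to these genes. Among 208 regions listed in DKO replicate 2 and both Wt libraries, the DKO value lay below both Wt values in 199.

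The remaining genes taken from the upper end followed the same layout. E130308A19Rik had the highest log2 fold change, 2.92 (SE 0.44), in the authors' deposited table, with ATAC values of 4.45 and 5.23 in DKO and 10.15 and 10.49 in Wt. Cdyl, a chromodomain corepressor, rose by 1.84, Epb41, which ties spectrin and actin to the membrane, by 1.60, and Eif4enif1, a partner of the cap-binding factor eIF4E, by 1.58 in the authors' deposited table. Jade1, a scaffold of the HBO1 acetyltransferase, rose by 1.57 in the authors' deposited table. The ATAC values of these 4 genes ran from 3.62 to 6.71 in DKO and from 5.26 to 9.59 in Wt, and at each gene the listed DKO values were below both Wt values.

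Lower genes showed ATAC values of the same kind. H2-T3, a nonclassical MHC class I gene whose reads may be shared with close copies, fell by 4.18 on the log2 scale (SE 0.50, adjusted p = 2.06e-16, mean count 146) in the authors' deposited table. The Cdx2 peak there overlapped ATAC peaks of 3.55 and 3.35 in DKO replicates 1 and 2, by 34 and 191 bases. These stood at percentiles 29.7 and 27.8 of their lists, and neither Wt list had a peak over the Cdx2 peak. The overlap was taken with the Cdx2 peak and not with the start, so openness of the start itself is not shown. Nrep (chr18:33464063-33464327), which takes part in nerve regeneration, had -3.55 in the authors' deposited table (SE 0.46, adjusted p = 5.59e-14, mean count 126), with ATAC values of 4.29 in DKO replicate 2, no peak in DKO replicate 1, and 10.07 and 8.39 in Wt. Farp2 had -1.71 in the authors' deposited table (SE 0.27, adjusted p = 1.43e-09), with 3.63 and 4.68 in DKO and 8.56 and 8.74 in Wt. Dock8, an exchange factor for Cdc42, had -1.65 in the authors' deposited table, with 3.88 in DKO replicate 2, no peak in DKO replicate 1, and 10.67 and 12.02 in Wt. Zfp866 (-1.98), Tmem80 (-1.75), Dop1b (-1.66) and Chordc1, an Hsp90 partner (-1.36), completed the lower end of the authors' deposited table, and 2 regions lay at the start of Chordc1. Apart from H2-T3, the named genes that rose and those that fell thus both had ATAC peaks of lower fold enrichment in DKO. Most of the regions with peaks in both groups had this order.

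One region with no Wt peak over its Cdx2 peak lay beside a pair of divergent starts. At chr13:97138251-97138448 the Cdx2 summit was 360 bases from the start of Gfm2, a mitochondrial translation factor. It was 371 bases from that of Nsa2, a ribosome assembly factor. The ATAC peak of 3.71 in DKO replicate 1, 307 bases wide, overlapped this Cdx2 peak by 14 bases. Whether a Wt peak overlapped the rest of that DKO peak, or the starts, was not examined. In the authors' deposited table Gfm2 fell by 0.81 (SE 0.23, adjusted p = 0.00158) and Nsa2 rose by 0.85 (SE 0.21, adjusted p = 2.52e-04). The pair was described after its values were seen. Together with H2-T3 these were the only table genes at the 34 regions with no Wt peak.

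**Figure D5:**
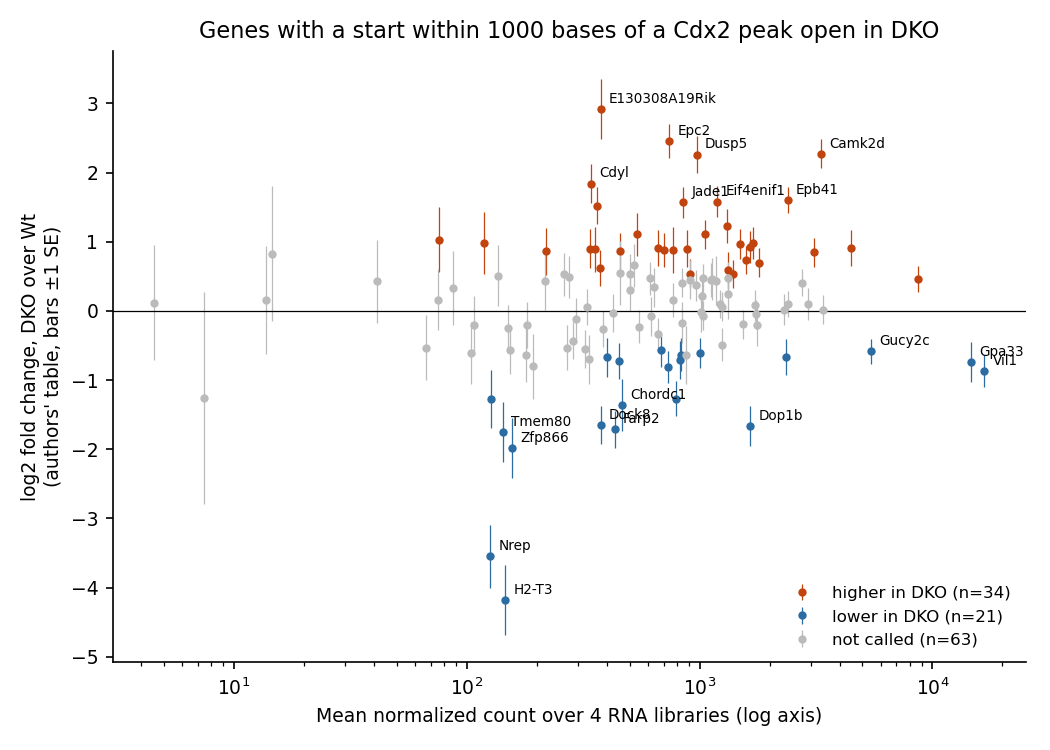
Log2 fold change of RNA, DKO over Wt, from the authors' deposited table (vertical axis, bars of 1 SE) against the mean normalized count over 4 libraries (horizontal axis, log scale) for the 118 genes with a start at the regions. The 34 genes called higher reach 2.92 and the 21 called lower reach -4.18, with Vil1, Gpa33 and Gucy2c at the highest counts among the genes called lower.

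Of the 12 gene lists read at the regions, only the list of intestinal epithelial identity had genes there, 3 of its 26. The authors' deposited table called all 3 lower in DKO. Over the whole list in the authors' deposited table, 18 of the 26 were lower, 1 higher, and the list's median was -0.89, where 18.3% of all genes were called lower and 18.5% higher. Vil1, the actin bundler of microvilli, had -0.87 on the log2 scale of the authors' deposited table (SE 0.23, adjusted p = 4.88e-04, mean count 16677). Its region, chr1:74408747-74408985, had 3.03 in DKO replicate 2, no peak in DKO replicate 1, and 6.30 and 4.20 in Wt. Gpa33, whose promoter sequence is printed above, had -0.74 on the same scale in the authors' deposited table (SE 0.29, adjusted p = 0.0258, mean count 14632), with ATAC values of 3.79 in DKO replicate 2, no peak in DKO replicate 1, and 7.73 and 8.72 in Wt. Gucy2c, the receptor for guanylin and uroguanylin, had -0.58 in the authors' deposited table (SE 0.18, adjusted p = 0.00526, mean count 5466). Its region, chr6:136781694-136781997, was placed by an end of the gene span, and its Cdx2 fold enrichment was 10.54. The ATAC values there were 3.21 and 3.32 in DKO and 7.78 and 8.93 in Wt. The Cdx2 peaks at these 3 intestinal genes thus still overlapped a listed DKO peak while the RNA of the genes was lower. At Gpa33 that overlap was 39 of 220 bases. By width and overlap, the DKO peaks listed at Vil1 and Gpa33 did not cover the gene start itself.

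No gene of the lists for colon and intestine transcription factors (36 named), goblet cells (19), absorptive colonocytes (24), cell junctions (26), immediate early genes (18) or NF-kB targets and the inflammasome (25) had a start at the regions. The same held for the gastric (18), crypt stem cell (20), ribosomal protein (27), stroma (15) and immune (12) lists. Genes of these lists at Cdx2 peaks open in Wt only were Hnf4a, Ehf, Slc26a3, Aqp8, Slc51b and Trim31, and from the identity list Cdhr5 and Heph. With 118 table genes at the regions, few list members could be met there.

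The genes named by the study's title lay away from these regions. The nearest region to Trim31, an E3 ubiquitin ligase, was 65666 bases from the gene, while its nearest Cdx2 peak, 888 bases away, was open in Wt only. The nearest region to Nlrp3, the inflammasome sensor, lay 27542128 bases away. In the authors' deposited table the log2 fold change was -1.48 for Trim31 (SE 0.45, adjusted p = 0.00135) and 1.88 for Nlrp3 (SE 1.78, adjusted p = 0.0578, mean count 8.77). The nearest regions to Cdx2 and Cdx1 were 1069603 and 427339 bases away, and the authors' deposited table put Cdx1 at -1.06 on the log2 scale (SE 0.23, adjusted p = 2.08e-05), although both strain labels name it as null.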

How the data were processed

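Cdx2 ChIP-seq (1 library), ATAC-seq (2 DKO, 2 Wt) and RNA-seq (2 DKO, 2 Wt) were read as deposited. Peak files gave a fold enrichment ratio, a score, and -log10 p and -log10 q for each peak, made by the authors with 1 list per library, per the file headers. Lists used a smallest -log10 q of 1.30 to 1.31 in ATAC and 1.54 in ChIP. Tools listed in the submitters' processing notes, with no role stated, are MACS2, Salmon 1.3.0, fastp, DESeq2, Bowtie2 and BWA, beside the mouse builds GRCm38 and mm10. Whether ATAC reads were shifted, and which ChIP control was used, is not given in the sources used here. Per gene, a deposited table held a mean normalized count (a signal that the authors scaled between libraries), a log2 fold change with its SE, and p-values, per the file headers, with adjusted p-values deposited beside them. Estimated counts per transcript, deposited from Salmon, were used only for depth: 21197446 and 20069555 reads in DKO and 16403301 and 25494309 in Wt.

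Overlaps of at least 1 base were computed in Python 3.11.15 with pandas 2.3.3, numpy 2.4.6 and scipy 1.17.1, and checked on simulated intervals. Gene starts came from RefSeq GRCm38.p6, with both ends of a gene's span where no strand was given (Gucy2c and Nrep among the named genes). A start was found for 16362 of the 17511 table genes. Intervals are exact binomial at 95%. Percentiles rank a peak within its own list. Motifs were searched in RefSeq promoter windows, since no genome was at hand for the planned windows around summits, and AATAAA was added after seeing the data. Regions and gene lists were chosen with earlier results of these data known. Regions were named by the 10 highest Cdx2 values, the 5 highest ranks over all ATAC lists and the 5 highest Cdx2 values without a Wt peak, and at the edges of the rule. Genes were named as the 8 highest and 8 lowest log2 fold changes among called genes with a mean of at least 50, the list genes, and Cdx2, Cdx1, Trim31 and Nlrp3. Alternatives changed the overlap, the lists required, the q threshold, the distance and the call rule.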

Additional observations from a re-analysis of the deposited data

How the results depend on the processing

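Of 40 alternatives, 19 gave a value close to the main one and 21 moved it. Reversal of a result was not assessed. The number of regions (270) was 166 with at least 50% of the Cdx2 peak covered, 171 with the summit inside a DKO peak, 81 in both DKO lists, 106 with ATAC -log10 q of at least 5, 170 with Cdx2 -log10 q of at least 5, and 108 to 243 with either DKO library left out. The share with a Wt peak (87.4%) was 74.1% with at least 50% covered, 81.9% in both Wt lists, 82.2% with -log10 q of at least 5, and 83.3% to 85.9% with either Wt library left out. The median Cdx2 value (5.08) was 4.77 in both DKO lists. The gene-start share (43.7%) was 37.8% with stranded starts only, 38.5% at 500 bases and 57.4% at 5000 bases. It was 55.6% in both DKO lists, and 44.4% to 47.3% with a DKO library left out. The share of Wt-open Cdx2 peaks with a DKO peak (10.3%) was 5.69% with -log10 q of at least 5, 13.3% with 23961 peaks taken from each list, and 3.91% to 9.56% with a DKO library left out. Those with stricter q, equal list length and a DKO library left out were chosen after seeing the data. So was the alternative with stranded starts only. In the authors' deposited table, genes called higher (34) were 12 in both DKO lists, 13 at 2-fold, and 13 to 33 with a DKO library left out. Genes called lower (21) were 4, 10, and 7 to 18 in the same settings. Fewer libraries or stricter lists leave fewer regions and genes by construction.

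No paired analysis was possible because no label ties DKO and Wt libraries of the same number, the peak lists were compared by overlap without a test, and nothing used here pairs the transcripts, which have values per library, with genes. Motif windows of other sizes around the Cdx2 summits were not run, for want of a genome. The chief limits are 1 ChIP library, 2 ATAC libraries a group that differ in list length, and no read coverage at the regions: a region without a listed peak is not shown to be closed.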
